A study of Mus musculus with 27 samples.

Results

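A set of 10 genes of apical membrane traffic and of the microvillus was followed across 3 genotypes of mK4 cells, a mouse kidney line derived from metanephric mesenchyme. They were taken by symbol (Rab25, Myo5b, Mal2, Ezr, Vil1, Espn, Ap1m2, Rab11fip1, Muc1 and Prom1), and all 10 were found among the 24953 genes of a table of TPM (transcript level scaled for gene length and library sum) for 9 RNA-seq libraries. Control cells were parental mK4 cells. Runx1KO cells came from them by a CRISPR-Cas9 deletion of exon 3 of Runx1, which holds the start codon used in mK4 cells. ZebDKO cells were made in the same way with guides to exon 2 of Zeb1 and exon 1 of Zeb2. Each genotype had 3 libraries of poly(A) RNA from wells cultured in triplicate to near confluence. Clones had been picked after puromycin selection, and how many were sequenced is not stated, so clone and genotype cannot be told apart. Because the replicates are cultures of a line, the tests measure the spread between cultures.

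An epithelial cell sends newly made and recycled proteins to its apical surface through the Rab11-positive recycling endosome. Rab25 is the epithelial member of the Rab11 subfamily, Rab11fip1 is an effector that binds these GTPases, and myosin Vb (Myo5b) is the motor that moves the vesicles along actin. Mal2 takes part in transcytosis, and Ap1m2 encodes the epithelial medium subunit of the clathrin adaptor AP-1. At the surface, ezrin (Ezr) ties the membrane to actin, whereas villin (Vil1) and espin (Espn) bundle the actin core of the microvillus. Muc1 is a transmembrane mucin of the apical surface and prominin-1 (Prom1) is a pentaspan glycoprotein of membrane protrusions. Zeb1 and Zeb2 are repressors of epithelial genes that bind E-boxes with the letters CAGGTG or CAGGTA. The comparison of the knockouts shows whether these genes moved in Runx1KO cells, in ZebDKO cells or in both. Runx1KO cells also lost most Zeb1 and Zeb2 RNA, as described below. In those cells the loss of Runx1 and the loss of Zeb therefore cannot be told apart.

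The 10 genes lie on 9 chromosomes. In mm9 with GENCODE gene models they were Rab25 (chr3:88345951-88352222, minus strand), Muc1 (chr3:89032979-89037303, plus), Mal2 (chr15:54402921-54434401, plus), Ezr (chr17:6942390-6987133, minus), Vil1 (chr1:74455950-74482133, plus), Espn (chr4:151494440-151526480, minus), Ap1m2 (chr9:21099901-21116777, minus), Rab11fip1 (chr8:28249245-28285120, minus) and Prom1 (chr5:44384864-44493271, minus). Myo5b is on a further chromosome. Rab25 and Muc1 were 680.8 kb apart. Exons of Ezr, Vil1, Rab11fip1 and Prom1 overlap exons of a gene on the other strand, and whether strand was used in counting is not stated.

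Zeb-type letters stood in most of the promoters that could be read. RefSeq windows from 250 bases before to 50 after the start (GRCm38.p6) matched 7 of the 10 genes (Rab25, Ezr, Vil1, Espn, Ap1m2, Muc1 and Prom1). CAGGTG, read on both strands, was in 5 of these 7 genes (Rab25, Vil1, Ap1m2, Muc1 and Prom1) and in 20.2% of all 32851 windows of that length. Espn and Prom1 have more than 1 window each, so a gene had more than 1 chance to match. CAGGTA was in 4 of the 7 (12.0% of all windows), the Grhl-type letters AACNNGTT in 3 (4.20%), and the Runx letters TGTGGT in 1, Prom1 (16.8%). These are matches of letters and not measured sites. The windows of 4 genes are shown because the genotypes or the chromatin differed at some of them and they carry the E-boxes, with CAGGTG and CAGGTA of either strand in capitals (CACCTG and TACCTG are the same letters read on the other strand). They are written 5′ to 3′ along the gene, from chr9:21312284-21312583 (Ap1m2, minus), chr3:88548230-88548529 (Rab25, minus), chr3:89228806-89229105 (Muc1, plus) and chr5:44101687-44101986 (Prom1, minus) of GRCm38.p6.
Ap1m2: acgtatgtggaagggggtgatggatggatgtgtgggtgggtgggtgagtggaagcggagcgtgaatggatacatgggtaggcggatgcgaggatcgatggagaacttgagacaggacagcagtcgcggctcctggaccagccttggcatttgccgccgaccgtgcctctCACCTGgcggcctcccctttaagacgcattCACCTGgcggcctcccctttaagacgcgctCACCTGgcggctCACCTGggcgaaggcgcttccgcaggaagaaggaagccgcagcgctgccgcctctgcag
Rab25: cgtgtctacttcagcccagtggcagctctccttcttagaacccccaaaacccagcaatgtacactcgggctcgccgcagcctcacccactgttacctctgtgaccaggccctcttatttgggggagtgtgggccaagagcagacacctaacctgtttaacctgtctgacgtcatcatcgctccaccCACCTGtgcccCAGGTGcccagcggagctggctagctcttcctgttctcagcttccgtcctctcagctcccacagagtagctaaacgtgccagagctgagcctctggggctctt
Muc1: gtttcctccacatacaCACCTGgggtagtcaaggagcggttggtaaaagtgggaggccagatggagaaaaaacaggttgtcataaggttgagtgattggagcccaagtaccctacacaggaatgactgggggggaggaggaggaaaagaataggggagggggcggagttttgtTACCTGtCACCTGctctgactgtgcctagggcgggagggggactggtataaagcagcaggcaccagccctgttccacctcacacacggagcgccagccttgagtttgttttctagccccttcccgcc
Prom1: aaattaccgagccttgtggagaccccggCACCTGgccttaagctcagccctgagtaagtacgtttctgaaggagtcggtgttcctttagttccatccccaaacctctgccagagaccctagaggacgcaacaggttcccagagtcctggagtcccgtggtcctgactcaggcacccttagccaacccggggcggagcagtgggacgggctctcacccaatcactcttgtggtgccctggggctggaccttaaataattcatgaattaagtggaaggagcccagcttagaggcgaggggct
The Ap1m2 window held 4 CAGGTG E-boxes within 81 bases upstream of the start. The first 3 followed each other every 30 bases, the last came 12 bases further on, and 27 bases from the starts of the first and second were identical. In Rab25 a pair of CAGGTG E-boxes started 11 bases apart, 64 and 53 bases before the start. In Muc1 a CAGGTA and a CAGGTG started 7 bases apart, 77 and 70 bases before the start, with a further CAGGTG at 234 bases. The Ezr window held neither form. Each of these windows matched mm9 exactly once, so the chromatin peaks described further on, which are in mm9, could be placed on them.

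The libraries were alike in what can be read from TPM, which keep no read number. Between 12541 and 12697 genes reached 1 TPM, and the 100 most abundant genes held 18.6 to 19.7% of TPM. Zeb1 fell from 14.2 to 15.6 TPM in control cells to 0.1 to 0.2 TPM in Runx1KO cells, and Zeb2 from 4.9 to 5.5 TPM to 0.2 TPM in each library. In ZebDKO cells Zeb1 was at 14.8 to 16.8 TPM and Zeb2 at 1.6 to 1.8 TPM. Runx1 was at 28.5 to 30.3 TPM in Runx1KO cells against 15.6 to 18.7 TPM in control cells. TPM over the whole gene thus does not show the deletions in Runx1 and Zeb1. The paper reports the deletions by PCR and the loss of Runx1 and Zeb1 protein by Western blot. Of the metanephric mesenchyme markers, Pax2 was at 310.2 to 315.7 TPM in control cells, while Six2 and Hoxd11 were at 0. The 10 epithelial markers summed to 2.8 to 5.0 TPM in control, 2663 to 2745 TPM in Runx1KO and 1153 to 1212 TPM in ZebDKO libraries, mostly Krt8, with Cdh1 at 0.6 TPM or less in all 9. Endothelial markers summed to at most 5.8 TPM and haematopoietic markers to at most 7.7 TPM. In bulk RNA, fewer cells of a type and less RNA per cell cannot be told apart, and the part of these markers in the results was not tested. The labels name other RNA and processing tools for ZebDKO libraries than for the rest, so any difference of handling cannot be told apart from the ZebDKO genotype.

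Genes that reached 1 TPM in 3 or more of the 6 libraries compared were tested with limma on log2(TPM+1). A gene was called higher or lower at a difference over 2-fold and an adjusted p under 0.05 (Benjamini-Hochberg over all genes tested), and fold changes below are on that log2(TPM+1) scale, which understates those of low genes. The median over all genes was -0.06 for Runx1KO over control, -0.18 for ZebDKO over control and 0.15 for Runx1KO over ZebDKO. Of the 10 genes, 6 could be tested in Runx1KO against control cells, and 2 were called higher and 0 lower by limma. Over all 13067 genes tested, 7.91% were called higher and 5.10% lower. In ZebDKO against control cells 8 could be tested, and 5 were called higher and 1 lower (over 12974 genes, 7.49% higher and 7.28% lower). Several genes passed the filter on low values only through the genotype in which they were high: Prom1 through both knockouts, Myo5b and Vil1 through ZebDKO cells and Espn through control cells. The counts are therefore a description and not support for a shared direction. At an unadjusted p under 0.05 from limma, 4 of the 6 were higher and 1 (Espn) lower in Runx1KO cells, beside 31.4% and 41.5% of all genes tested, and 70.5% of all genes had an adjusted p under 0.05. Every knockout library lay above every control library for 3 of the tested genes in Runx1KO cells (31.7% of all genes tested) and 6 in ZebDKO cells (27.7%), and below for 2 (42.0%) and 1 (53.3%). Both comparisons use the same control libraries.

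**Figure D1:**
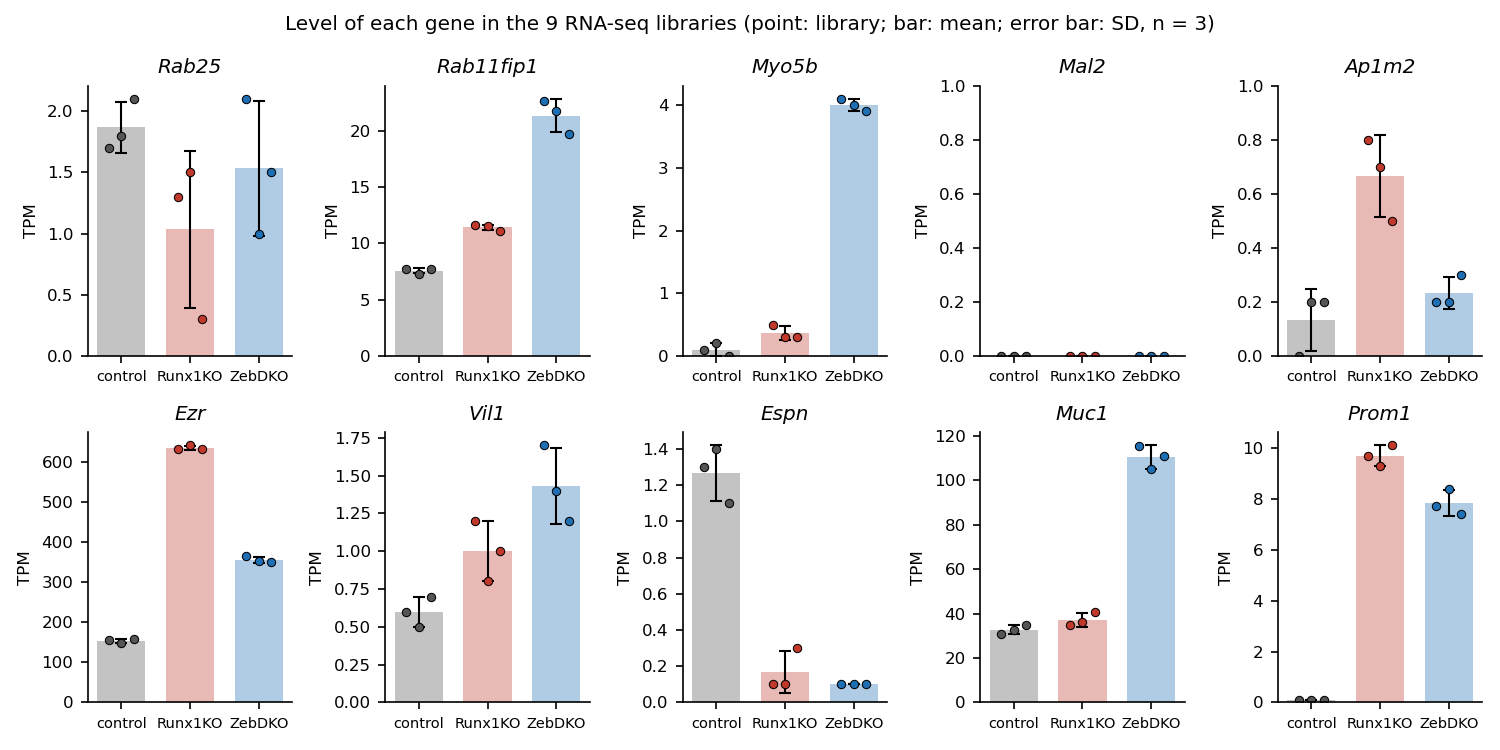
TPM (y axis, linear from 0, its own scale in each panel) of the 10 genes in control, Runx1KO and ZebDKO cells, with points for libraries, bars for means and error bars for the SD (n = 3). Ezr is highest in Runx1KO cells at 630.7 to 640.9 TPM, whereas Muc1, Rab11fip1 and Myo5b are highest in ZebDKO cells.

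Ezr was the most abundant of the 10 genes and rose in both knockouts. Its level was 154.8, 148.8 and 158.4 TPM in control cells, 631.8, 640.9 and 630.7 TPM in Runx1KO cells and 364.6, 353.5 and 349.9 TPM in ZebDKO cells. The 3 groups did not overlap, with every ZebDKO library between the others. The mean was 4.12 times the control mean in Runx1KO cells (log2 fold change 2.04, SE 0.029, adjusted p = 9.31e-09) and 2.31 times in ZebDKO cells (log2 fold change 1.2, SE 0.033, adjusted p = 1.22e-07). Tested directly, Runx1KO was higher than ZebDKO by 0.83 (SE 0.024, adjusted p = 1.62e-07), which is under the 2-fold limit. A further deposited TPM table of only the control and Runx1KO libraries, which differs in level for the same genes, had Ezr at 81.05, 77.63 and 82.78 TPM in control and 379.81, 384.46 and 374.69 TPM in Runx1KO libraries (log2 fold change 2.22, adjusted p = 7.34e-10). The gene on the other strand, Sytl3, was at 0.1 TPM or less in all 9 libraries.

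Among the paralogues of Ezr, radixin (Rdx) and moesin (Msn) also join membrane to actin, and neither was called in any comparison. Rdx had means of 88.5, 84.7 and 70.1 TPM in control, Runx1KO and ZebDKO cells, and Msn of 502, 510 and 466 TPM. Ezr made up 20.7 ± 0.475% (SD, n = 3) of the summed TPM of the 3 paralogues in control cells, 51.6 ± 0.534% in Runx1KO cells and 39.9 ± 1.16% in ZebDKO cells. The sum itself was 745 TPM in control, 1229 TPM in Runx1KO and 892 TPM in ZebDKO cells. Msn was the most abundant of the 3 in control and ZebDKO cells, and Ezr in Runx1KO cells.

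The actin bundlers stayed low throughout. Espn was at 1.3, 1.4 and 1.1 TPM in control libraries, 0.1, 0.1 and 0.3 TPM in Runx1KO and 0.1 TPM in each ZebDKO library. Every control library lay above every knockout library. Espn was called lower in ZebDKO cells (log2 fold change -1.04, SE 0.10, adjusted p = 4.73e-05), but not at median-ratio scaling (-0.98), nor without control replicate 2 (-0.999, adjusted p = 0.000346). In Runx1KO cells it stood just short of the 2-fold limit (-0.96, SE 0.114, adjusted p = 0.000234) and passed it without control replicate 3 (-1.01) or without Runx1KO replicate 3 (-1.04). In the 6-library table Espn was at 5.17, 4.82 and 3.52 TPM against 0.32, 0.29 and 0.68 TPM, and was called lower at -1.94 (adjusted p = 9.23e-06). Espn was the 1 gene of the 10 with every library of both knockouts below every control library.

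Vil1 was at 0.6, 0.5 and 0.7 TPM in control, 1.2, 0.8 and 1.0 TPM in Runx1KO and 1.7, 1.4 and 1.2 TPM in ZebDKO libraries. The knockout libraries all lay above the control libraries, and overlapped each other at 1.2 TPM. In the 6-library table Vil1 was lower, at 0.06, 0.03 and 0.17 TPM in control and 0.43, 0.17 and 0.26 TPM in Runx1KO libraries. There the control and Runx1KO libraries met at 0.17 TPM. The difference of ZebDKO from control was 0.60 (SE 0.112, adjusted p = 0.00165) and under the 2-fold limit. It passed that limit with a pseudocount of 0.1 in place of 1 (1.13, adjusted p = 0.00186). Usp37, whose exons overlap those of Vil1 on the other strand, was at 24.9 to 27.9, 26.9 to 28.1 and 19.1 to 21.2 TPM, and did not rise with Vil1. The paralogues Espnl and Avil had means under 1 TPM in all 3 genotypes.

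Of the apical glycoproteins, Muc1 was called higher in ZebDKO cells and Prom1 in both knockouts. Muc1 was at 30.9, 32.4 and 35 TPM in control, 34.9, 36.0 and 40.8 TPM in Runx1KO and 115.5, 104.9 and 110.9 TPM in ZebDKO libraries. Control and Runx1KO libraries overlapped, whereas every ZebDKO library was above both. Muc1 was 3.37 times the control mean in ZebDKO cells (log2 fold change 1.72, SE 0.056, adjusted p = 2.65e-07). In Runx1KO cells the difference from control was 0.18 (95% interval 0.01 to 0.35, adjusted p = 0.0562), and 0.24 in the 6-library table (adjusted p = 0.0367), both far under the 2-fold limit. Runx1KO cells were lower than ZebDKO cells by a log2 fold change of -1.55 (SE 0.064, adjusted p = 7.56e-07). The related mucin Muc4 was at 0.1 TPM or less in every library.

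Prom1 was nearly silent in control cells, at 0.1 TPM in each library. It was at 9.7, 9.3 and 10.1 TPM in Runx1KO libraries and 7.7, 8.4 and 7.4 TPM in ZebDKO libraries. No knockout library overlapped the control libraries, and the knockouts did not overlap each other. The log2 fold change was 3.28 in Runx1KO (SE 0.068, adjusted p = 3.91e-08) and 3.0 in ZebDKO cells (SE 0.079, adjusted p = 9.86e-08), with 0.28 between them (SE 0.062, adjusted p = 0.00407). That difference between the knockouts was 0.012 with quantile normalization (adjusted p = 0.843) and 0.14 with median-ratio scaling (adjusted p = 0.0614). The 6-library table put Prom1 at 37.18, 37.2 and 37.94 TPM in Runx1KO and at 0.44, 0.35 and 0.44 TPM in control libraries (log2 fold change 4.77, adjusted p = 4.99e-10). The size of the change therefore depends on the table, and its direction does not. Its paralogue Prom2 was at 0 TPM in control and ZebDKO libraries and 0.3 to 0.4 TPM in Runx1KO libraries.

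Of the recycling endosome genes, Rab11fip1 rose in ZebDKO cells. It was at 7.7, 7.3 and 7.7 TPM in control, 11.6, 11.5 and 11.1 TPM in Runx1KO and 22.6, 21.7 and 19.7 TPM in ZebDKO libraries. The 3 groups did not overlap, and Runx1KO lay between. The mean was 2.82 times the control mean in ZebDKO cells (log2 fold change 1.38, SE 0.062, adjusted p = 1.21e-06) and 1.51 times in Runx1KO cells (0.53, SE 0.047, adjusted p = 5.39e-05, under the 2-fold limit). Runx1KO differed from ZebDKO by -0.85 (SE 0.058, adjusted p = 7.71e-06). The gene 4933416M07Rik, whose exons overlap those of Rab11fip1 on the other strand, moved with it at 9.0, 9.0 and 10.8 TPM, then 13.7, 13.6 and 13.3 TPM, then 22.4, 22.9 and 19.3 TPM. Since the use of strand is not stated, reads of these genes cannot be told apart.

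The other Rab11 effectors moved in different ways. Rab11fip4 was called higher in both knockouts, with means of 2.7, 13.3 and 6.4 TPM in control, Runx1KO and ZebDKO cells (log2 fold change 1.96 in Runx1KO, SE 0.132, adjusted p = 1.29e-05, and 1.02 in ZebDKO, SE 0.138, adjusted p = 0.000306). Rab11fip5 had means of 39.8, 48.4 and 46.0 TPM in control, Runx1KO and ZebDKO cells and was not called. Rab11fip2 fell in ZebDKO cells, from 13.2 to 4.53 TPM (log2 fold change -1.36, SE 0.055, adjusted p = 7.47e-07), and was at 11.7 TPM in Runx1KO cells. Rab11fip1 made up 9.86 ± 0.12% (SD, n = 3) of the summed TPM of the 5 Rab11fip genes in control cells, 11.8 ± 0.389% in Runx1KO cells and 23.4 ± 1.5% in ZebDKO cells.

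Of the 9 libraries, Myo5b exceeded 1 TPM in the 3 ZebDKO libraries and in no other. It was at 0.1, 0.2 and 0 TPM in control, 0.5, 0.3 and 0.3 TPM in Runx1KO and 4.1, 4.0 and 3.9 TPM in ZebDKO libraries. ZebDKO libraries stood clear of both other groups. The log2 fold change was 2.19 over control (SE 0.097, adjusted p = 1.18e-06), and Runx1KO was lower than ZebDKO by -1.87 (SE 0.090, adjusted p = 1.41e-06). Runx1KO and control cells were both below the filter. Without the filter their difference was 0.31 (adjusted p = 0.0675 over 24953 genes). The paralogue Myo5a remained the main class V myosin, with means of 46.5, 39.2 and 24.6 TPM, and was not called. Myo5b made up 0.22 ± 0.232% (SD, n = 3) of the TPM of Myo5a, Myo5b and Myo5c in control, 0.925 ± 0.292% in Runx1KO and 13.6 ± 1.04% in ZebDKO cells.

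Rab25 varied within the knockouts by more than the genotype means differed. It was at 1.7, 1.8 and 2.1 TPM in control, 1.3, 1.5 and 0.3 TPM in Runx1KO and 2.1, 1.0 and 1.5 TPM in ZebDKO libraries. Every Runx1KO library lay below every control library, whereas ZebDKO and control libraries overlapped. Its difference from control was -0.55 in Runx1KO cells (95% interval -1.13 to 0.03, adjusted p = 0.0792) and -0.20 in ZebDKO cells (95% interval -0.58 to 0.18, adjusted p = 0.287). Without Runx1KO replicate 3, the library at 0.3 TPM, the difference of Runx1KO was -0.26 (adjusted p = 0.0692), and without Runx1KO replicate 2 it was -0.73 (adjusted p = 0.042). With pseudocounts of 0.5 and 0.1 it was -0.73 and -1.02. The intervals are wide for a gene near 1 TPM, and the one for Runx1KO reaches past the 2-fold limit. Its ubiquitous relatives Rab11a and Rab11b had means of 103.5, 110.7 and 95.2 TPM and of 67.1, 74.6 and 67.4 TPM, were not called, and left Rab25 at 1.08% of the summed TPM of the subfamily or less on average.

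Ap1m2 and Mal2 were not tested. Ap1m2 was at 0, 0.2 and 0.2 TPM in control, 0.8, 0.7 and 0.5 TPM in Runx1KO and 0.2, 0.2 and 0.3 TPM in ZebDKO libraries. All Runx1KO libraries lay above all others, in values that move in steps of 0.1 TPM. Without the filter the difference of Runx1KO was 0.56 from control (SE 0.11, adjusted p = 0.0171) and 0.43 from ZebDKO (SE 0.081, adjusted p = 0.0121), both under the 2-fold limit. Its ubiquitous counterpart Ap1m1 was at means of 233.4, 199.9 and 202.6 TPM. Mal2 was listed at 0 in all 9 libraries and in the 6 libraries of the other table.

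In the direct comparison of the knockouts 7 of the 10 genes could be tested, and 2 (Myo5b and Muc1) were called lower in Runx1KO than in ZebDKO cells and 0 higher by limma, where 6.59% of all 13071 genes tested were called lower and 9.20% higher. Myo5b passed the filter here only through ZebDKO cells, so these counts are a description as well. At an unadjusted p under 0.05, 2 of the 7 genes were higher and 4 lower (50.8% and 30.4% of all genes tested). Every Runx1KO library lay above every ZebDKO library for 2 genes (51.0% of all genes tested) and below for 3 (30.7%). Ezr and Rab11fip1 differed by less than the limit and in opposite directions, and Prom1 by least among those with an adjusted p under 0.05. The differences for Vil1 (-0.28, 95% interval -0.56 to -0.00196, adjusted p = 0.0602) and Rab25 (-0.35, 95% interval -0.995 to 0.29, adjusted p = 0.267) did not pass. Over all genes tested, 80.0% had an adjusted p under 0.05.

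**Figure D2:**
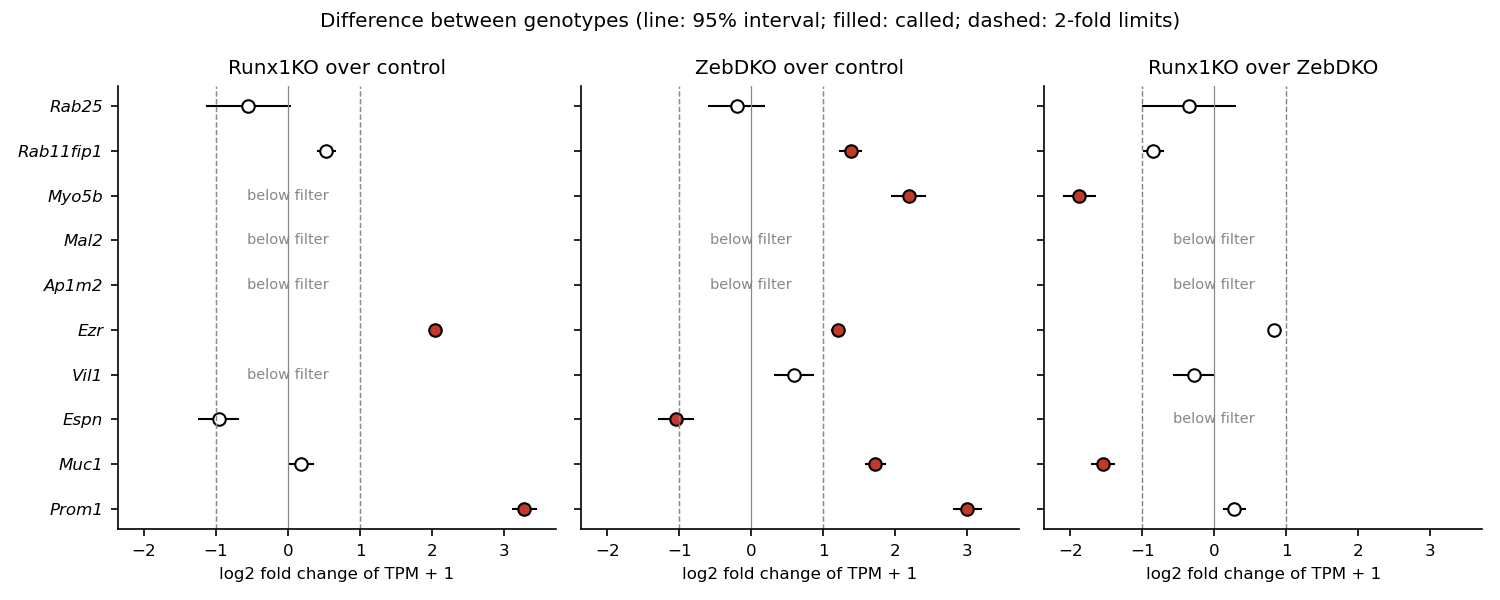
Log2 fold change of TPM + 1 (x axis) of the 10 genes in 3 comparisons, with 95% intervals as lines, filled points for called genes and dashed lines at the 2-fold limits. Ezr and Prom1 are called in both knockouts against control, whereas Myo5b and Muc1 are called in ZebDKO cells against both other genotypes.

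**Figure D3:**
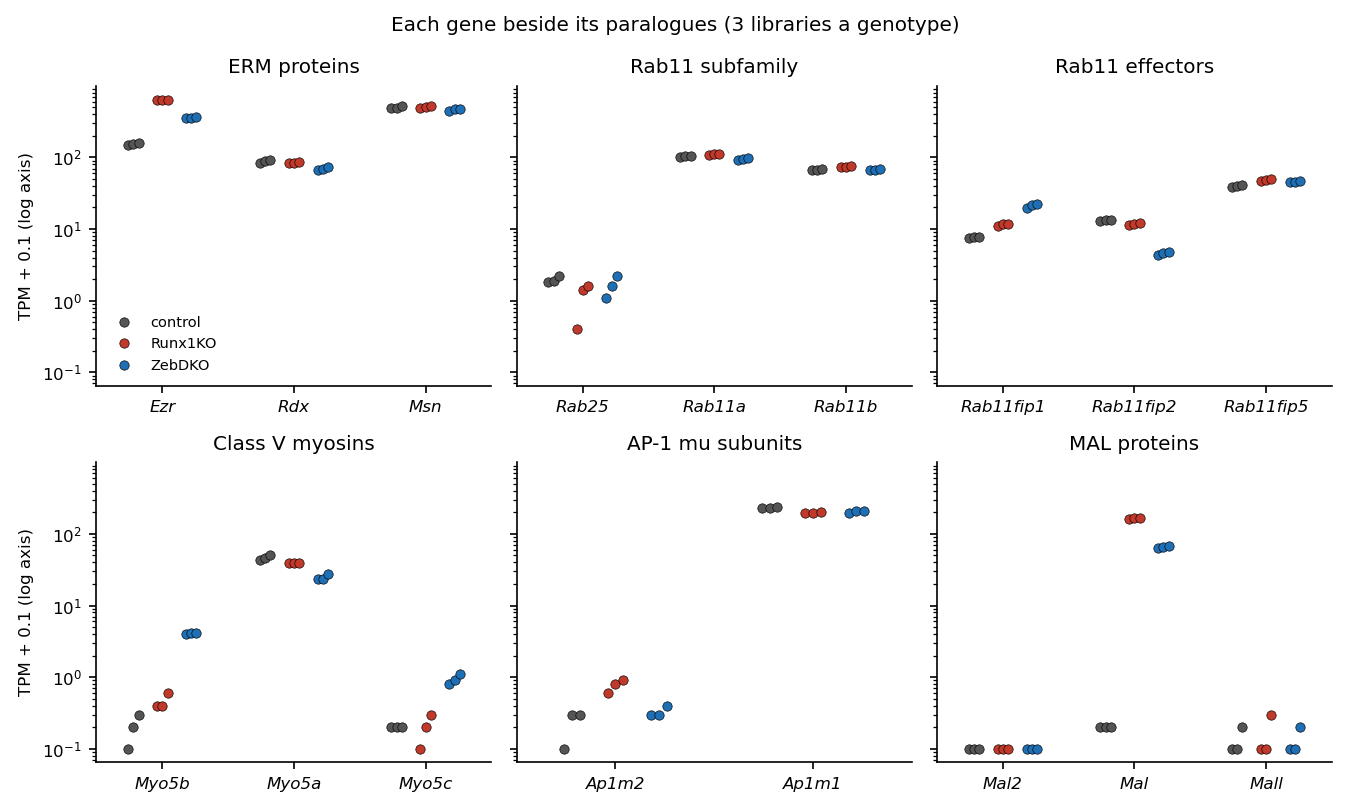
TPM + 0.1 (y axis, logarithmic) of 6 of the genes and their paralogues, with a point for each of the 3 libraries of a genotype, sorted by value. Ezr overtakes Msn in Runx1KO cells, whereas Rab25, Myo5b and Ap1m2 stay far below Rab11a, Myo5a and Ap1m1.

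Around these genes, 91 further genes of the same pathways were listed from general knowledge, and 90 of them are in the table. The lists were chosen with earlier results of these data known. In Runx1KO against control cells 67 were tested, of which 13 were called higher, 4 lower and 50 not, where 7.91% of all genes tested were called higher and 5.10% lower. In ZebDKO cells 10 of 67 were called higher and 5 lower (7.49% and 7.28% of all genes). Of those called higher, 6 of 13 in Runx1KO and 5 of 10 in ZebDKO cells, with Mal, Rab17, Eps8l1 and Eps8l2 among both, had no control library at 1 TPM, and 4 of 4 and 3 of 5 called lower had no knockout library there. Such genes passed the filter only through the genotype in which they were high, so these counts and those of each list below are a description. The median log2 fold change over the tested genes was 0.00477 in Runx1KO and -0.19 in ZebDKO cells, beside -0.06 and -0.18 over all genes. Some genes beyond the leading gene of each list are named below because the counts are small, chosen after their values were seen.

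In the list of 29 recycling endosome and apical carrier genes, 24 were tested. The 5 called higher in Runx1KO cells were Mal, Stx3, Rab11fip4, Sytl1 and Rab17, and 2 were called lower (Sytl2 and Rab27b). Mal, a proteolipid of apical raft carriers and a relative of Mal2, was at 0.1 TPM in each control library, 163.9 to 168.8 TPM in Runx1KO and 63.2 to 67.1 TPM in ZebDKO libraries (log2 fold change 7.25 and 5.91, adjusted p = 2.81e-10 and 1.75e-09). Mal was also higher in Runx1KO than in ZebDKO cells (1.34, adjusted p = 6.97e-08). Mall stayed at 0.2 TPM or less. Stx3, the SNARE of the apical membrane, rose from 2.63 TPM to 15.2 TPM in Runx1KO and 22.1 TPM in ZebDKO cells. In ZebDKO cells 4 were called higher (Mal, Stx3, Rab11fip4 and Rab17) and 2 lower (Rab11fip2 and Sytl2). Sytl2, an effector of Rab27, led the direct comparison at -1.56 (adjusted p = 2.07e-06).

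Of the 7 other AP-1 subunits, 1 was called higher, and it was the same gene in both knockouts. Ap1s3, a small subunit, had means of 7.03, 17.8 and 16.1 TPM in control, Runx1KO and ZebDKO cells (log2 fold change 1.22 and 1.09, adjusted p = 2.29e-05 and 6.75e-06). None of the 9 exocyst genes, which tether vesicles at the membrane, was called by limma in the 3 comparisons. At an unadjusted p under 0.05 from limma, 1 was higher and 6 lower in Runx1KO cells, beside 31.4% and 41.5% of all genes tested. In ZebDKO cells 0 were higher and 9 lower, beside 27.5% and 53.2% of all genes tested. There 79.4% of all genes had an adjusted p under 0.05, and the median over all genes was itself -0.18. The ERM list of 9 genes had 0 called by limma against control in either knockout. At an unadjusted p under 0.05, 2 were higher and 3 lower in Runx1KO cells, beside the same 31.4% and 41.5%. In ZebDKO cells 2 were higher and 6 lower, beside the same 27.5% and 53.2%. Podxl, a sialomucin anchored by ERM proteins, was at 87.2 TPM in Runx1KO and 33.7 TPM in ZebDKO cells (1.35, adjusted p = 6.41e-07).

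In the list of 24 microvillus core and tip genes, 13 were tested against control, of which 5 were called higher in Runx1KO cells (Eps8l2, Eps8l1, Myo1d, Cdhr2 and Cobl) and 0 lower by limma. Eps8l2, an actin-capping relative of the microvillus tip protein Eps8, had means of 0.5, 235 and 304 TPM (log2 fold change 7.30 in Runx1KO and 7.67 in ZebDKO cells, adjusted p = 1.31e-09 and 9.99e-10). Eps8l1 had means of 0.167, 14.6 and 3.43 TPM and was higher in Runx1KO than in ZebDKO cells (1.82, adjusted p = 3.51e-07). In ZebDKO cells 3 were called higher (Eps8l2, Eps8l1 and Myo1d) and 1 lower (Eps8l3).

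Of 13 apical membrane glycoproteins 12 are in the table, and 5 were tested against control. In each knockout 2 were called higher and 2 lower. The same 2 genes were called lower in both knockouts (Anpep and Enpep, the peptidases of the proximal tubule brush border), and Cdh16 was among those called higher in both. Cdh16, the kidney cadherin, had means of 16.9, 369 and 189 TPM (log2 fold change 4.37 and 3.41, adjusted p = 1.21e-09 and 2.51e-09).

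**Figure D4:**
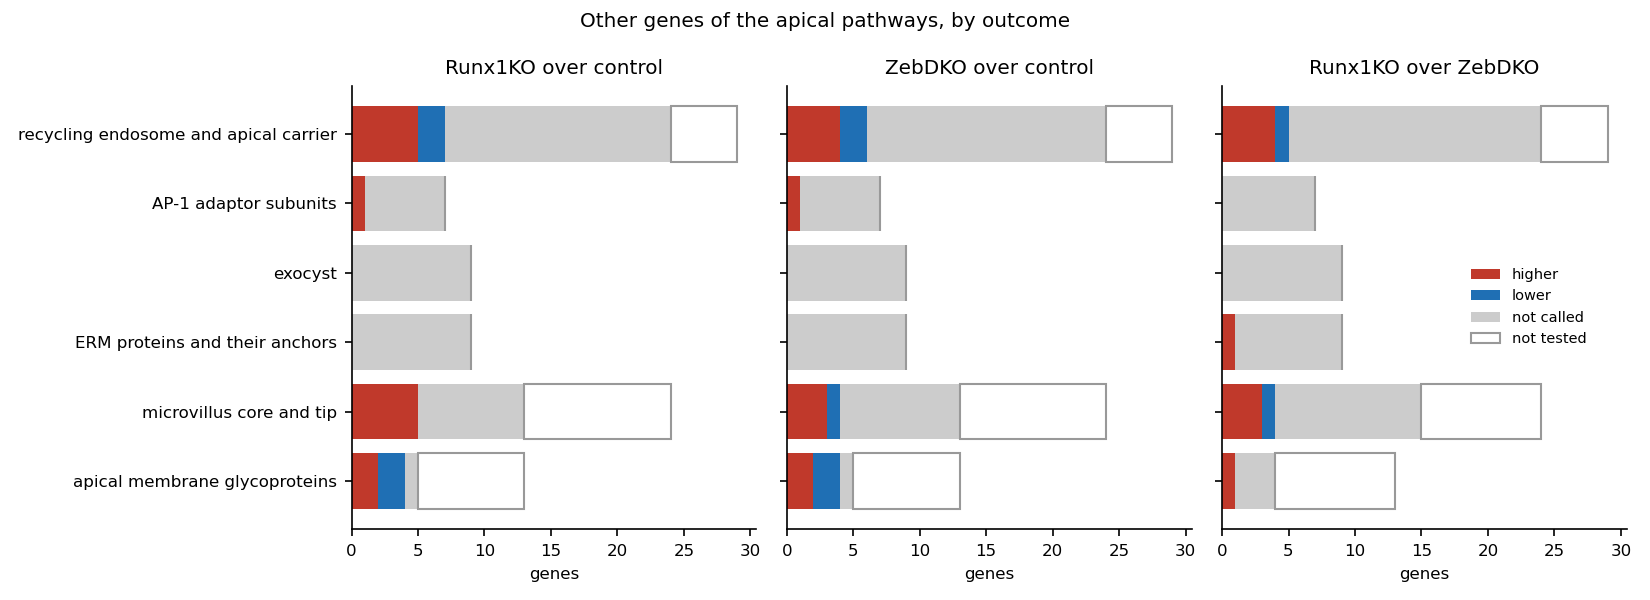
Number of genes (x axis) of each pathway list called higher, lower or not called, or not tested, in the 3 comparisons. No exocyst gene is called in any, and the microvillus list has 5 genes called higher in Runx1KO and 3 in ZebDKO cells against control.

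The mean standardised profile of the 8 genes that reached 1 TPM in 3 or more of all 9 libraries was compared with 13374 genes. The genes most like it were Mpdu1 (r = 0.9954), Eprn (0.9878), E230013L22Rik (0.9872), Tom1l1 (0.9865) and Cdkn2a (0.9857), over 9 libraries that fall into 3 genotypes, so these r values describe mainly the 3 group means. Mpdu1 rose in mean from 16.7 TPM in control to 19.7 TPM in Runx1KO and 25.2 TPM in ZebDKO libraries. The profile itself is highest in ZebDKO cells, as for Muc1, Rab11fip1 and Myo5b.

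Chromatin was described from deposited peak lists, which hold no values per replicate, so counts are given without a test. The ATAC-seq lists compare Runx1KO with control cells and split peaks into 9427 that opened in Runx1KO cells, 8741 that closed and 37481 open in both. No ATAC-seq of ZebDKO cells was analysed here. Within 10 kb of the gene, 6 of the 10 genes had an opening peak (Myo5b, Vil1, Espn, Ap1m2, Rab11fip1 and Prom1), beside 29.2% of tested genes. Tested genes are here the 11148 with a position that were tested in Runx1KO against control cells. Myo5b, Vil1, Ap1m2 and Mal2 were not among them, and gene length was not taken into account. A closing peak was near 1 gene, Vil1 (22.4% of tested genes), and a peak open in both was near 9 (94.5%). Of the 6 genes, Prom1 was called higher in Runx1KO cells, and Rab11fip1 was higher by less than the 2-fold limit. Myo5b, Vil1 and Ap1m2 had higher means in Runx1KO than in control cells but were below the filter. Espn was lower, just short of the 2-fold limit. Whether opening peaks went with a direction was not tested. Ezr, at 4.12 times its control mean in Runx1KO cells, had 3 ATAC-seq peaks within 10 kb, all open in both. Further out, an opening peak lay 26 kb upstream of Ezr.

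The opening peak at Prom1 was the only 1 within 1 kb of the outermost start of a gene, which is the start used here. Within 1 kb of the start, 4.44% of tested genes had an opening peak, and of the 10 genes Prom1 had one, 1467 bp wide and covering the Prom1 promoter window shown above. No other peak of any list lay within 10 kb of its start. The starts of Ezr, Ap1m2, Rab11fip1 and Muc1 lay within 1 kb of peaks open in both genotypes (78.9% of tested genes). The starts of Rab25, Myo5b, Vil1, Espn and Mal2 had no ATAC-seq peak within 1 kb, and Mal2 had no peak of any list within 10 kb. Opening peaks of Myo5b, Vil1 and Espn did lie within 1 kb of the start of another annotated transcript of the gene.

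Most of the opening peaks near the genes held Zeb-type letters, and so did most opening peaks over the whole genome. Of the 10 such peaks, 8 held CAGGTG (80%), beside 64.9% of all opening, 46.4% of open in both and 30.8% of closing peaks. These 10 peaks had a median width of 718 bp against 505 bp for all opening peaks, which gives them more bases to match. Of the 26 peaks open in both near the genes, 13 held CAGGTG. Windows of 200 bases from the opening peaks 8.35 kb upstream of Espn (chr4:151534875-151535074) and 2.89 kb upstream of Rab11fip1 (chr8:28287686-28287885) are given because these peaks lie outside the gene and upstream of it, on the plus strand of mm9 and with E-boxes in capitals.
Espn upstream: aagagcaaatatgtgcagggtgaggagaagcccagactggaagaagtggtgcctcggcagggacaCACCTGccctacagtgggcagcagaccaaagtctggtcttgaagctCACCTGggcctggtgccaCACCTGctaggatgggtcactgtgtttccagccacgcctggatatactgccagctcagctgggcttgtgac
Rab11fip1 upstream: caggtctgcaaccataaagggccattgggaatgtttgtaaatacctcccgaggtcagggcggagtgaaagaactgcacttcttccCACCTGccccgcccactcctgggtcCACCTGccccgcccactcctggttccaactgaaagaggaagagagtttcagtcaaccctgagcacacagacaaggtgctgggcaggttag
Each window was placed on the stretch of its peak with the most E-boxes, and the middle 200 bases of both peaks held no CAGGTG or CAGGTA. The Espn window held 3 of the 5 E-boxes of its peak and the Rab11fip1 window 2 of 3. In the Rab11fip1 window the 2 E-boxes start 25 bases apart, and 22 bases from each start are identical.

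ChIP-seq peaks of Runx1 in control cells lay within 10 kb of 5 genes (Rab25, Myo5b, Espn, Rab11fip1 and Muc1), beside 39.0% of tested genes. Runx2 peaks lay near 6 genes in control and 6 in Runx1KO cells, the same 5 and Ezr (69.1% and 70.5% of tested genes). The authors' fold is the enrichment over local background at the summit. Among peaks within 10 kb of these genes in control cells, it was highest for the peak 1.73 kb upstream of Espn, at 7.94 for Runx1 and 9.20 for Runx2. For Runx2 in Runx1KO cells that peak was at 4.69, and the highest was a peak beyond the 3′ end of Rab11fip1 at 7.54 (6.67 in control cells). At Muc1 a Runx1 peak of fold 3.6 lay 0.606 kb upstream of the start, the 1 Runx1 peak at a promoter of these genes (18.3% of tested genes). Runx2 peaks within 1 kb of the outermost start were those of Ezr, Rab11fip1 and Muc1 in both genotypes (45.2% of tested genes in control and 47.9% in Runx1KO cells). The Ezr promoter had Runx2 peaks of fold 6.43 in control and 5.31 in Runx1KO cells and no Runx1 peak. All of these peaks stood on chromatin open in both genotypes, except a Runx2 peak of fold 3.14 in Runx1KO cells 21.2 kb into Espn, which was outside every ATAC-seq peak. None of the opening peaks near these genes held a Runx1 or Runx2 peak.

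**Figure D5:**
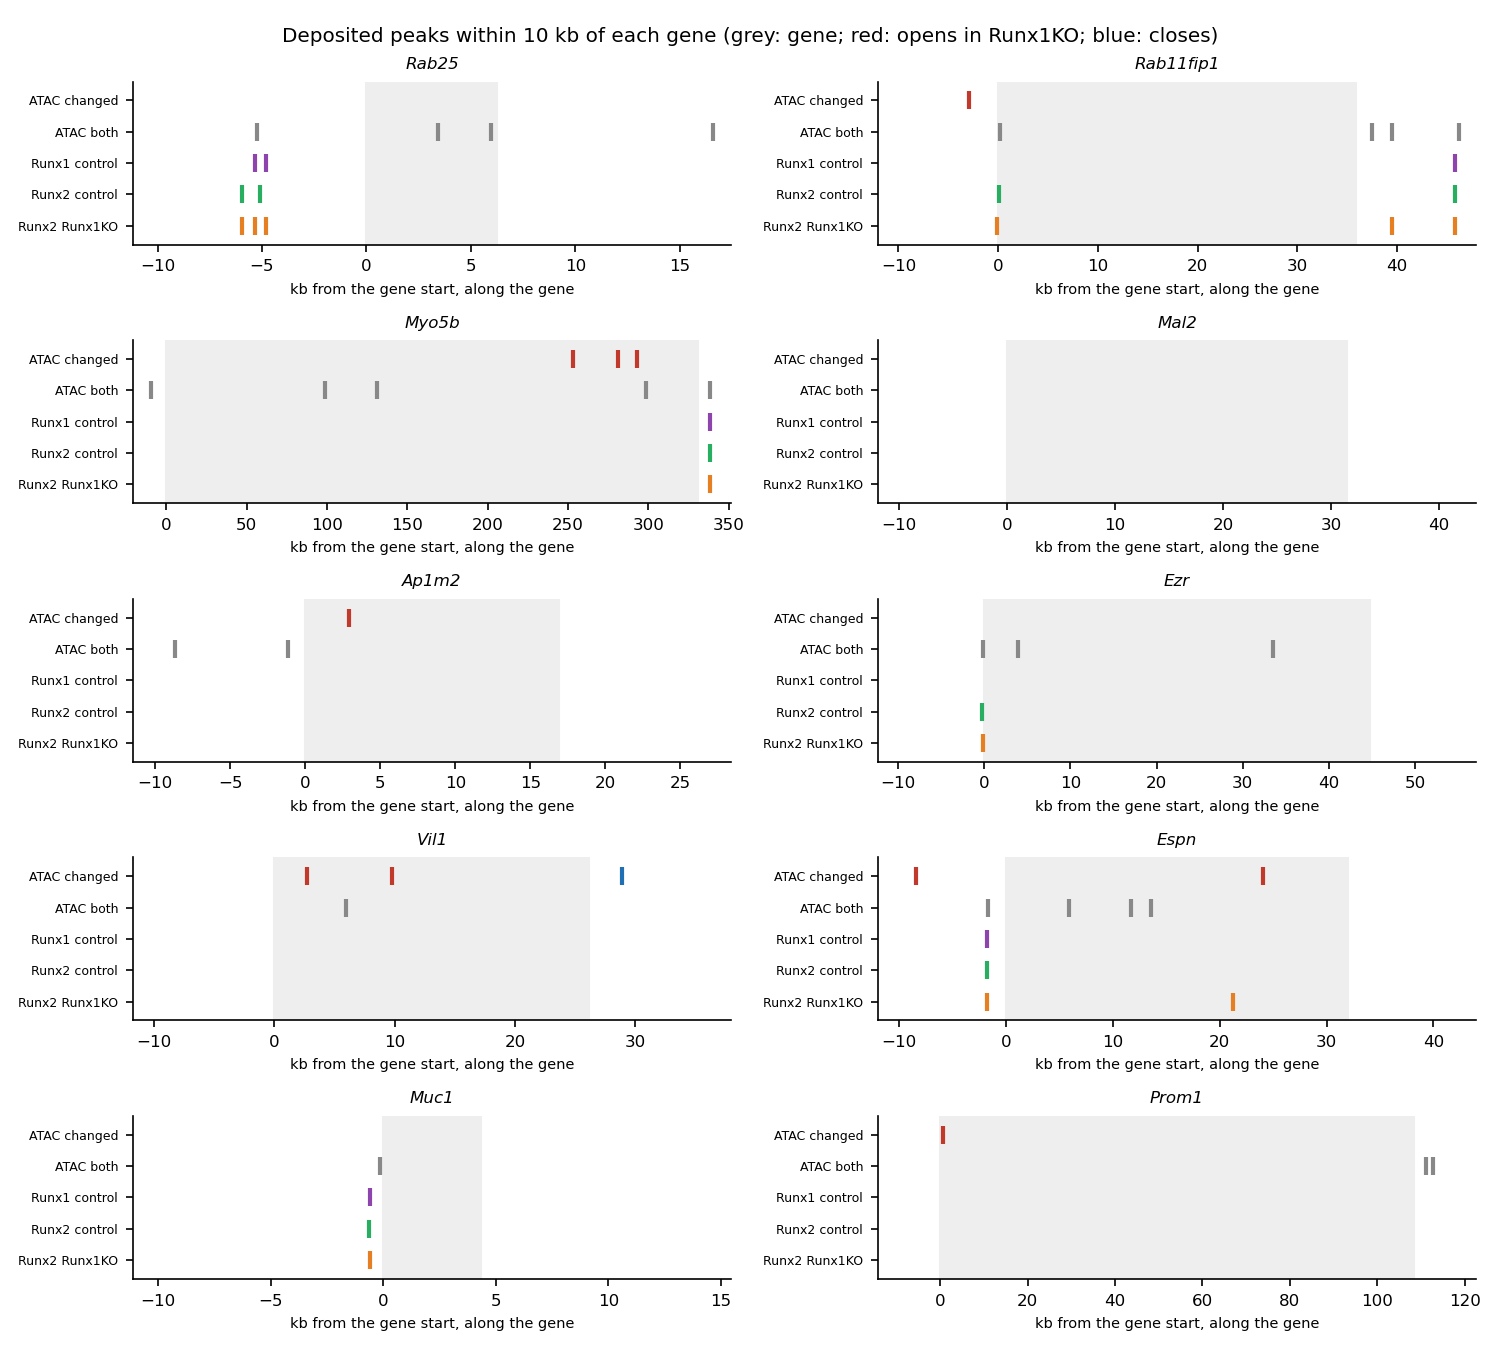
Deposited peaks within 10 kb of each gene by distance from its start in kb (x axis, its own scale in each panel), with the gene in grey, ATAC-seq peaks that open in Runx1KO cells in red, those that close in blue and those open in both in grey ticks. Runx1 and Runx2 ChIP-seq peaks are in the lower rows and stand under the peaks open in both (except 1 Runx2 peak 21.2 kb into Espn), whereas the red ticks have none below them.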

How the data were processed

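RNA-seq of 9 libraries, 2 TPM tables and 6 peak lists of ATAC-seq and ChIP-seq were used. The genes and pathway lists were chosen with earlier results of these data known. For RNA-seq the authors trimmed and aligned reads to mm9 and counted them on RefSeq genes, then deposited TPM scaled for gene length and library sum; which lengths were used is not stated. The table of 9 libraries has 1 decimal, and the table of 6 libraries 2 decimals, with other levels for the same genes, so the tables were analysed apart. The authors called MACS2 peaks on combined ChIP-seq reads, and deposited a fold (ratio to local background) and a -log10 q for each peak; the ATAC-seq lists were split by the authors at a 2-fold change after keeping peaks found in at least 2 replicates. Columns in the ATAC-seq lists with the authors' log2 fold change and an unlabelled -log10 value were not used.

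Genes that reached 1 TPM in 3 or more of 6 libraries were tested with limma 3.58.1 (R 4.3.3) on log2(TPM+1), letting the prior variance follow the mean level, with Benjamini-Hochberg adjustment. The method was tested on simulated data in which only genes well above 1 TPM were changed, so changes in genes near 1 TPM were not covered. Depth cannot be read from TPM or peak lists, so no counting interval is given. Alternatives were pseudocounts of 0.1 and 0.5, filters, scalings, the replicate block, a 1.3-fold limit, each library left out, the 6-library table, and for peaks the gene model alone or 50 kb around it. The genes named are the 10 members, the called gene with the largest change in each list, their paralogues, the targeted genes and the 5 genes of most similar profile. Peaks and motifs were handled in Python 3.11.15 with pandas 2.3.3, and figures drawn with matplotlib 3.10.9. Promoter sequences are from RefSeq (GRCm38.p6), and peak sequences from mm9. ChIP-seq of Runx1 in Runx1KO cells was not analysed here. A gene of the apical membrane glycoprotein list is not reported here by name.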

Additional observations from a re-analysis of the deposited data

Results flagged for a closer look

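Each of 5 genes changed by a different amount in Runx1KO than in ZebDKO cells, by limma's test of Runx1KO over ZebDKO on log2(TPM+1), which uses no control library. Myo5b (-1.87, adjusted p = 1.41e-06) and Muc1 (-1.55, adjusted p = 7.56e-07) were lower in Runx1KO cells, past the 2-fold limit. Myo5b passed the filter only through its ZebDKO libraries, so its direction was set by the filter. Rab11fip1 (-0.85, adjusted p = 7.71e-06) was lower, and Ezr (0.83, adjusted p = 1.62e-07) and Prom1 (0.28, adjusted p = 0.00407) were higher, by less than 2-fold. The Prom1 difference was 0.012 with quantile normalization (adjusted p = 0.843) and 0.14 with median-ratio scaling (adjusted p = 0.0614). In groups of 3 libraries no test for outlying libraries was run, but each comparison was refitted without each library in turn.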

How the results depend on the processing

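Of 332 values of the 10 genes under an alternative, 317 kept their direction and side of the limits, 15 changed side and 0 reversed. Genes called higher in Runx1KO (2) and ZebDKO (5) against control ranged from 2 to 3 and from 4 to 6. For Espn the number called lower in Runx1KO cells went from 0 to 1 with pseudocounts of 0.1 and 0.5, quantile normalization, the 1.3-fold limit and the 6-library table, and ranged from 0 to 1 when a library was left out; in ZebDKO cells it went from 1 to 0 at a filter of 5 TPM or median-ratio scaling, and ranged from 0 to 1 with a library left out. In Runx1KO against ZebDKO cells the 1.3-fold limit gave 1 called higher, and the 5 TPM filter 1 called lower in place of 2.

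Pathway genes called higher and lower at the 1.3-fold limit were 21 and 14 in Runx1KO against control, 18 and 19 in ZebDKO against control and 22 and 11 between the knockouts. Those called lower were 1, 2 and 1 at 5 TPM, and in ZebDKO against control 8 with a pseudocount of 0.1, 3 with median-ratio scaling and 3 to 5 with a library left out. The cause was not tested.

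The replicate block gave 2 and 0 genes called higher and lower in Runx1KO cells, 5 and 1 in ZebDKO cells and 0 and 2 between the knockouts, and changed no call. Same-numbered libraries share a number only, since their deviations correlated at -0.049 to 0.040. In the gene model alone, 5 genes had an opening peak, 0 a closing peak, 0 a Runx1 peak and 2 a Runx2 peak in either genotype. At 50 kb 8 had an opening peak and 7 a closing peak. In windows of 100 bases before to 50 after the start, CAGGTA and AACNNGTT were each in 1 gene. Values near 0 TPM move in steps of 0.1, which limits Ap1m2, Myo5b, Vil1, Espn and Rab25.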
